A study of Mus musculus with 8 samples.

Results

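Blood coagulation factor genes were followed in the livers of leptin-treated ob/ob mice. The 10 genes were F2, F5, F7, F9, F10, F11, F12, Fga, Fgb and Fgg, and every probe that carried 1 of these symbols in the deposited probe table was taken, which gave 15 of 25697 probes. F11 and F12 had 3 probes each, Fga had 2 and the other genes had 1. Adult male mice received leptin for 12 days at 0 ng/hr (3 arrays, replicates 1 to 3), 12.5 ng/hr (2 arrays, replicates 4 and 5) or 25 ng/hr (3 arrays, replicates 6 to 8), and liver RNA was hybridised to 1 Illumina BeadChip. Per the series title all animals were ob/ob, so the 0 ng/hr arrays, too, come from mice with no functional leptin of their own, and the sources used here describe no lean or wild-type group. The agent field of the labels calls the 25 ng/hr arrays untreated and the 0 ng/hr arrays leptin, against title, source and dose, and every direction below rests on the dose field. Nothing in the labels says whether arrays come from separate animals, so p-values may measure technical spread only. Dose groups follow one another along the chip, so position on the chip and dose cannot be told apart.

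Coagulation is a cascade in which inactive plasma proteases activate each other until thrombin cuts fibrinogen into fibrin. The hepatocyte is the main source of nearly all of these proteins, and gene expression there sets much of their plasma supply. In the contact pathway activated F12 activates F11, which in turn activates F9, and plasma kallikrein, made from prekallikrein, acts on F12 and kininogen, while F7 starts the cascade with tissue factor at a wound.

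Of the 10 genes, 9 had a probe above background (detection p-value under 0.05) on all 8 arrays and were tested among 10141 features. None of the 9 passed an adjusted p of 0.05 in limma's test at 25 minus 0 ng/hr, where 0.887% of all features passed. At an unadjusted p under 0.05 there were 2 of the 9, F11 and F7, against 17.1% of all features. F11 stood furthest from the 0 ng/hr arrays, at 2.345-fold with 25 ng/hr, and F7 followed at 1.39-fold. The 9 log2 differences had a median of 0.08, against -0.0025 over all features. For the fibrinogen genes Fga and Fgg, and for F2 (prothrombin), F5, F9, F10 and F12, the 95% interval of the difference included 0 at both doses.

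The promoter windows of F11 and F7 are shown because these were the genes with the largest differences, and those of Fga and Fgb because they held matches to the same 2 motifs. Each window runs from 250 bases before to 50 after the RefSeq gene start (GRCm38.p6), and RefSeq windows matched all 10 genes. F11 lies at chr8:45261982-45262281 (minus strand), F7 at chr8:13025784-13026083 (plus), Fga at chr3:83025903-83026202 (plus) and Fgb at chr3:83049814-83050113 (minus). Capitals mark matches, on either strand, to any of 6 motifs: TTCNNNGAA (STAT factors), CAAAGTCC (HNF4), GTTAAT (part of the HNF1 site), TGTTTAC (FOXA), CCAAT and TATAAA.
F11: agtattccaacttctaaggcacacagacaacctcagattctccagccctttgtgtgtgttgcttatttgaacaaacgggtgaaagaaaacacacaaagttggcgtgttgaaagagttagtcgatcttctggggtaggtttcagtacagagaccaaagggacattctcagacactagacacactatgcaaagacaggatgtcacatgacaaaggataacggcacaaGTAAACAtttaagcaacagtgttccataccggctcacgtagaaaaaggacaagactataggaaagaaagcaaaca
F7: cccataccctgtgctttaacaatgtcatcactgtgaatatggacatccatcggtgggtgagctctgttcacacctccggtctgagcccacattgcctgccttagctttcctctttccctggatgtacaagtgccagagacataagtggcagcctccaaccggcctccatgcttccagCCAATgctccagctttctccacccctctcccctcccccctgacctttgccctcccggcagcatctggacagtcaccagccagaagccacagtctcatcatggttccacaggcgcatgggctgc
Fga: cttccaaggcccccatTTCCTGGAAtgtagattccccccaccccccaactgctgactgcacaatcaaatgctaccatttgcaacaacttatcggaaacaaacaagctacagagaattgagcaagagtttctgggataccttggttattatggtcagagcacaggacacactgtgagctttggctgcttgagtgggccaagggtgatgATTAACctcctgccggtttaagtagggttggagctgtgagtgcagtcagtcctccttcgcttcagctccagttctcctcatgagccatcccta
Fgb: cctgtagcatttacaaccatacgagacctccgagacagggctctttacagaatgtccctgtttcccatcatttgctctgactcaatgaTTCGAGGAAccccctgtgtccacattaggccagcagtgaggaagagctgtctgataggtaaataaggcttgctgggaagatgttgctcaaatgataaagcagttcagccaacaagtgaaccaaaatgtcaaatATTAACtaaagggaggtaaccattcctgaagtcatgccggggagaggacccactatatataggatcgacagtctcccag
The F11 window held 1 match, the reverse complement of TGTTTAC 25 to 19 bases before the start, a motif present in 3.65% of 32851 windows. The F7 window held CCAAT 73 to 69 bases before the start, as 37.4% of all windows did. Fga and Fgb each held 1 match to TTCNNNGAA (8.30% of all windows) and 1 to GTTAAT (7.10%). Among the other members, F9 held TTCNNNGAA, F2 held GTTAAT, and F10 and F12 held CCAAT. No window of the 10 held CAAAGTCC (1.42% of all windows) or TATAAA (13.6%), and F5 and Fgg held none of the motifs. The matches are descriptions of these letters, not binding sites.

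F11, the protease of the contact pathway that activates F9, lies on chromosome 8. The log2 signals of its brightest probe were 9.13, 9.74 and 9.73 at 0 ng/hr, 10.56 and 10.16 at 12.5 ng/hr, and 11.21, 10.96 and 10.12 at 25 ng/hr. Every array of either leptin dose lay above every 0 ng/hr array, and the doses overlapped each other, with 25 ng/hr replicate 8 lowest of the 5. The means with their SD were 9.53 ± 0.35 for 3 arrays at 0 ng/hr, 10.36 ± 0.29 for 2 arrays at 12.5 ng/hr and 10.76 ± 0.57 for 3 arrays at 25 ng/hr. The difference of 25 minus 0 ng/hr was 1.23 on the log2 scale (SE 0.28), a fold of 2.345 with a 95% interval from 1.51 to 3.65. Its unadjusted p was 0.00189 and ranked 216 of 10141. The adjusted p in limma's test was 0.0870, above the threshold.

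At 12.5 minus 0 ng/hr the log2 difference of F11 was 0.82 (SE 0.32, adjusted p = 0.376 in limma's test), a fold of 1.77 with a 95% interval from 1.08 to 2.91. Of the 9 genes tested F11 was the 1 that lay higher without overlap between these groups, as 14.9% of all features did. No feature passed at 12.5 minus 0 ng/hr, and the unadjusted p of F11, 0.0285, was the 1 under 0.05 among the members, against 11.5% of all features. The difference of 25 minus 12.5 ng/hr was 0.41 (SE 0.32, 95% interval -0.31 to 1.12, adjusted p = 0.618), so the 2 doses could not be ordered. With both doses averaged the log2 difference from 0 ng/hr was 1.03 (SE 0.25, adjusted p = 0.134). In that contrast, too, the groups did not overlap, which held for 4.48% of all features in the higher direction. No feature passed, and F11 was the 1 member at an unadjusted p under 0.05, against 13.8% of all features.

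The 3 F11 probes gave nearly the same profile. When each of 13760 probes above background was a feature of its own in limma, the differences of 25 minus 0 ng/hr were 1.23 (SE 0.28), 1.26 (SE 0.27) and 1.29 (SE 0.25), with adjusted p of 0.0837, 0.0781 and 0.0547. The probe with the smallest of these was also the dimmest, at log2 4.95, 4.91 and 5.06 at 0 ng/hr, 6.08 and 5.88 at 12.5 ng/hr, and 6.82, 6.35 and 5.63 at 25 ng/hr. All 3 probes kept every leptin array above every 0 ng/hr array, and on all 3 replicate 8 was the lowest of the 25 ng/hr group. Probes of 1 gene read the same RNA and are not replicates of the dose. In the authors' deposited table, which has no background correction, the ratios of the 25 over the 0 ng/hr mean were 2.35, 2.36 and 1.63 for these probes, the last being the dimmest.

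**Figure D1:**
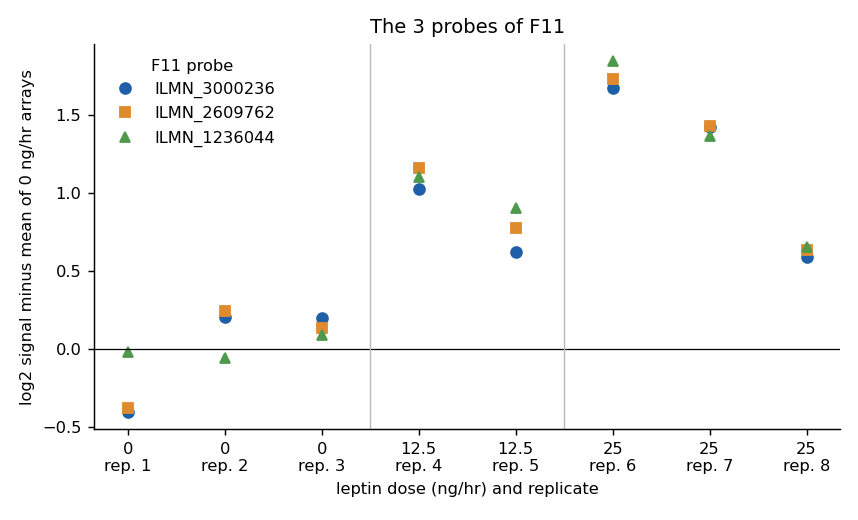
Log2 signal of the 3 F11 probes on each of the 8 arrays, minus the same probe's mean over the 0 ng/hr arrays (vertical axis, log2 units), by dose and replicate (horizontal axis, doses low to high). On every leptin array all 3 probes lie above all values of the same probe at 0 ng/hr, and replicate 8 is the lowest of the 25 ng/hr arrays.

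The call for F11 turned on the processing. Under 4 of 18 alternatives the adjusted p for 25 minus 0 ng/hr passed 0.05: with the intensities left uncorrected for background (0.0464), with the scaled values of the authors (0.0483), with a variance prior that follows intensity (0.0424), and without 25 ng/hr replicate 8 (0.0240, log2 1.55). These 4 settings called 192, 188, 206 and 130 of all features, in that order, against 90 in the fit used here. Over all 18 alternatives the log2 difference of F11 stayed between 1.01 and 1.55, and the adjusted p ran from 0.0240 to 0.245.

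F12, which starts the contact pathway, lies on chromosome 13 and pointed the other way. Its brightest probe read 12.29, 12.26 and 12.36 at 0 ng/hr, 12.38 and 12.24 at 12.5 ng/hr, and 12.10, 12.20 and 12.02 at 25 ng/hr, in log2 units. The 25 ng/hr arrays were all below the arrays of both other groups, by small margins. The log2 difference of 25 minus 0 ng/hr was -0.20 (SE 0.09, 95% interval -0.41 to 0.02, adjusted p = 0.333), and 11.7% of all features lay lower without overlap in this contrast. The other F12 probes gave -0.22 (SE 0.10) and -0.10 (SE 0.11) in the fit of all probes, and on the last of these the groups overlapped. At 12.5 minus 0 ng/hr the difference was 0.01 (SE 0.11). At 25 minus 12.5 ng/hr it was -0.20 (SE 0.11, adjusted p = 0.459), with groups apart, as for 16.9% of all features in the lower direction.

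**Figure D2:**
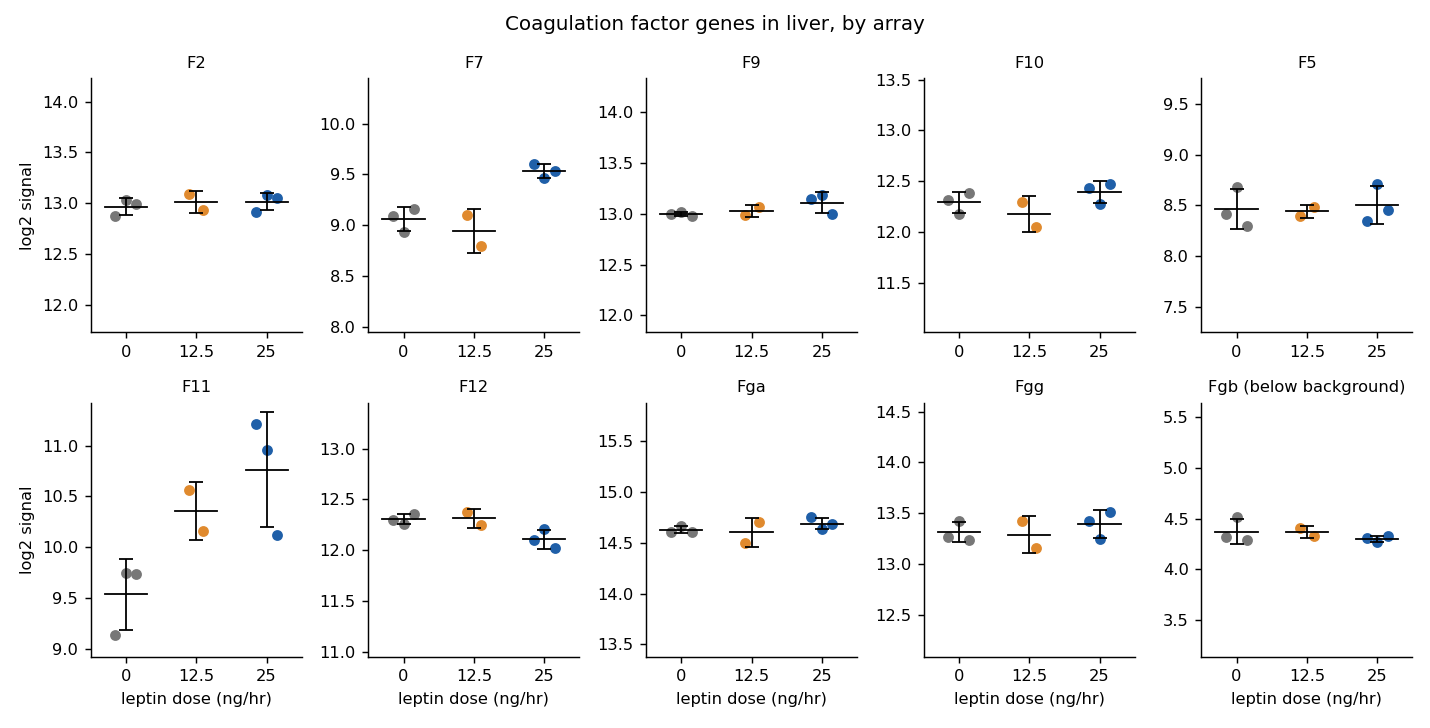
Log2 signal (vertical axes, each spanning the same 2.5 log2 units) of the 10 coagulation factor genes on every array, by leptin dose (horizontal axes, ng/hr), with the group mean as a bar and the SD as whiskers, for the brightest probe of each gene. F11 at both leptin doses and F7 at 25 ng/hr lie above the 0 ng/hr arrays, while Fgb is below background on all 8 arrays.

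The proteases F2, F7, F9 and F10 carry carboxylated glutamate residues made with vitamin K, which let them bind calcium and membranes. F7, the protease that works with tissue factor, had log2 signals of 9.09, 8.93 and 9.16 at 0 ng/hr, 9.10 and 8.79 at 12.5 ng/hr, and 9.60, 9.46 and 9.53 at 25 ng/hr. The 25 ng/hr arrays lay together above all 5 others, and those of 12.5 and 0 ng/hr overlapped. The means with their SD were 9.06 ± 0.11 for 3 arrays at 0 ng/hr, 8.95 ± 0.22 for 2 arrays at 12.5 ng/hr and 9.53 ± 0.07 for 3 arrays at 25 ng/hr. The difference of 25 minus 0 ng/hr was 0.47 (SE 0.11), a fold of 1.39 with a 95% interval from 1.16 to 1.66, at an unadjusted p of 0.00246 and an adjusted p of 0.0933 in limma's test. F7 and F11 were the 2 of 9 members that lay higher without overlap at 25 minus 0 ng/hr, where 11.2% of all features did.

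F7 differed from F11 in its dose profile as measured, since its estimate at 12.5 minus 0 ng/hr was -0.11 (SE 0.13, 95% interval -0.40 to 0.17). Whether the 2 genes respond differently to dose was not tested. At 25 minus 12.5 ng/hr the log2 difference of F7 was 0.59 (SE 0.13, 95% interval 0.30 to 0.87, unadjusted p = 0.00126), with an adjusted p of 0.109, in a contrast where 0.424% of features passed. F7 was the 1 member under an unadjusted p of 0.05 there, against 13.4% of all features, and the 1 that lay higher without overlap, against 14.2%. At 25 minus 0 ng/hr the adjusted p of F7 passed with intensities left uncorrected for background (0.0464), with the scaled values of the authors (0.0408) and with the intensity-dependent variance prior (0.0466), and over 18 alternatives it ran from 0.0408 to 0.262. Its log2 difference stayed between 0.41 and 0.52. The settings under which F7 passed called 192, 188 and 206 of all features, in that order, against 90 in the fit used here.

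**Figure D3:**
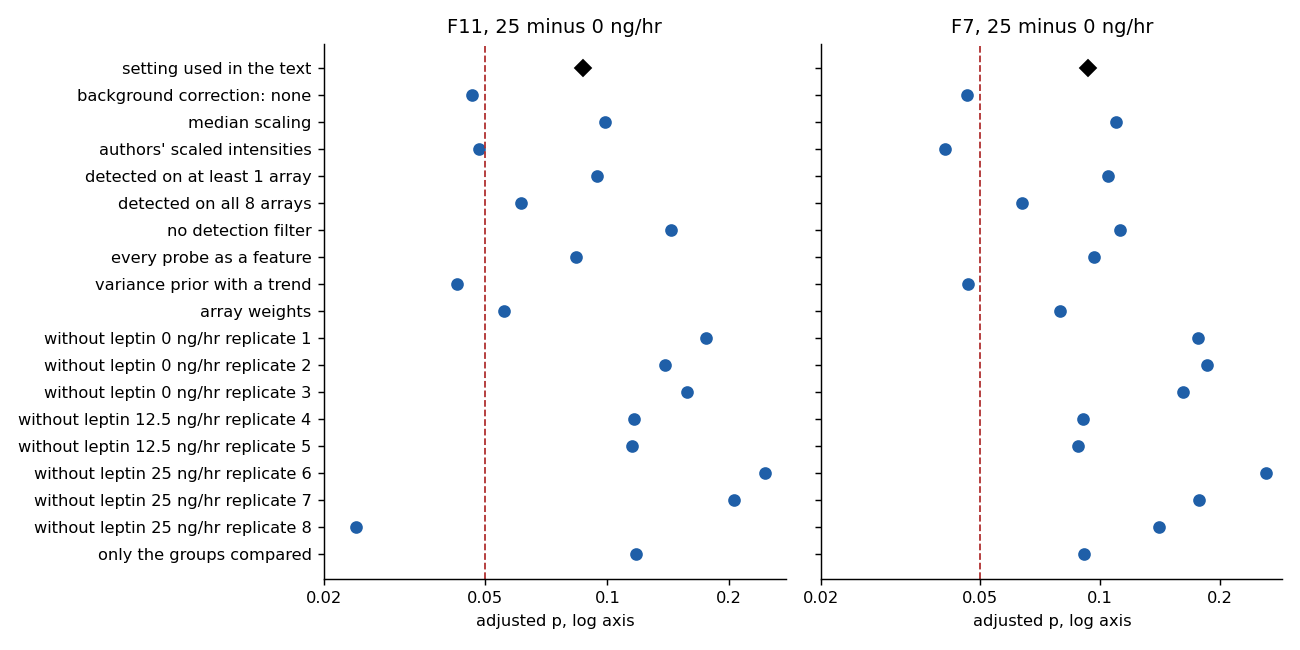
Adjusted p (horizontal axes, log scale) of F11 and of F7 for 25 minus 0 ng/hr under the setting used in the text (diamond) and 18 alternatives (circles), with the 0.05 threshold as a dashed line. F11 passes under 4 alternatives and F7 under 3.

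F10, the protease that turns prothrombin into thrombin, is the direct neighbour of F7 on chromosome 8. Its signals were 12.32, 12.18 and 12.38 at 0 ng/hr, 12.30 and 12.05 at 12.5 ng/hr, and 12.43, 12.27 and 12.47 at 25 ng/hr. The groups overlapped, and the difference of 25 minus 0 ng/hr was 0.10 (SE 0.11, 95% interval -0.15 to 0.35). Proz, on the far side of F10, encodes protein Z, a cofactor in the inhibition of activated F10, and differed by 0.30 on the log2 scale (SE 0.10, adjusted p = 0.183). On the far side of F7, Mcf2l had 0.54 (SE 0.16, adjusted p = 0.158). F11 lies between Mtnr1a, a melatonin receptor gene, at 0.18 (SE 0.13, adjusted p = 0.536), and Klkb1, for plasma prekallikrein. Klkb1 averaged 10.64 ± 0.10 at 25 ng/hr and 10.31 ± 0.18 at 0 ng/hr (SD, n = 3 each), a log2 difference of 0.34 (SE 0.12, adjusted p = 0.192). None of these neighbours passed, and Proz, Mcf2l and Mtnr1a are named for their position, after the values of F7 and F11 were known.

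F9, the protease whose loss causes haemophilia B, lies on the X chromosome and ranged from 12.98 to 13.19 over the 8 arrays. Its difference of 25 minus 0 ng/hr was 0.11 (SE 0.09, 95% interval -0.10 to 0.32). F2, which encodes prothrombin on chromosome 2, ranged from 12.87 to 13.09, with a difference of 0.05 (SE 0.10, 95% interval -0.17 to 0.27). F5, the cofactor of activated F10, lies on chromosome 1 and ranged from 8.29 to 8.71, with a difference of 0.04 (SE 0.13, 95% interval -0.26 to 0.34). At all 3 doses the arrays of F9, F2 and F5 overlapped. Their adjusted p lay between 0.597 and 0.901 at 25 minus 0 ng/hr and between 0.911 and 0.974 at 12.5 minus 0 ng/hr.

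Fga, Fgb and Fgg encode the alpha, beta and gamma chains of fibrinogen, which the hepatocyte assembles into 1 molecule, and lie side by side on chromosome 3. The brighter Fga probe read 14.61, 14.67 and 14.61 at 0 ng/hr, 14.50 and 14.71 at 12.5 ng/hr, and 14.75, 14.64 and 14.68 at 25 ng/hr. Fgg read 13.27, 13.42 and 13.24 at 0 ng/hr, 13.42 and 13.16 at 12.5 ng/hr, and 13.42, 13.24 and 13.51 at 25 ng/hr. For both genes the groups overlapped in every pairing. The difference of 25 minus 0 ng/hr was 0.06 for Fga (SE 0.09, 95% interval -0.15 to 0.28) and 0.08 for Fgg (SE 0.12, 95% interval -0.18 to 0.35), so that the upper ends are 1.21-fold for Fga and 1.27-fold for Fgg. The dimmer Fga probe gave 0.14 (SE 0.10) in the fit of all probes. At 12.5 minus 0 ng/hr both genes had -0.02 (SE 0.11 for Fga, 0.13 for Fgg).

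The single Fgb probe was not above background on any of the 8 arrays, with detection p-values from 0.296 to 0.919 and unscaled intensities from 49.2 to 65.6. No level or fold is given for Fgb. The single probe of Alb, the gene of albumin and a hepatocyte marker, was likewise not above background on any array. The hepatocyte markers Ttr, Apoa1, Cps1 and Ahsg were above background.

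**Figure D4:**
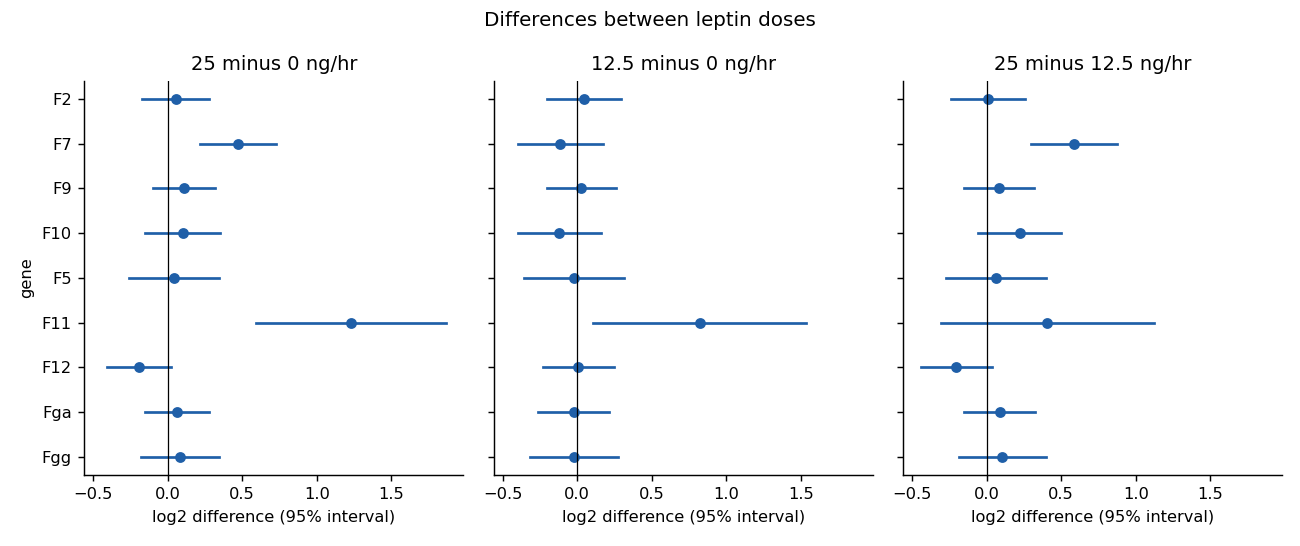
Log2 differences (points, horizontal axes) with 95% intervals from limma's fit (lines) for the 9 coagulation genes tested (rows), for 25 minus 0, 12.5 minus 0 and 25 minus 12.5 ng/hr. The intervals of F11 and F7 exclude 0 at 25 minus 0 ng/hr before adjustment over all features, and those of the fibrinogen genes Fga and Fgg include 0 in all 3 panels.

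Beyond the members, 46 further genes of clotting and its control were listed, 40 of which were tested. None passed an adjusted p of 0.05 in limma's test in any contrast. At 25 minus 0 ng/hr 12 of the 40 had an unadjusted p under 0.05, against 17.1% of all features, and the median log2 difference was 0.12. Procr is among the 12 but passed the detection filter only through its 25 ng/hr arrays, so it adds no support to this count. Vwf, which encodes the endothelial carrier of factor VIII, came nearest at -0.66 (SE 0.12, adjusted p = 0.0509). Its means were 7.35 ± 0.08 at 25 ng/hr and 8.01 ± 0.21 at 0 ng/hr (SD, n = 3 each). F8, the cofactor of activated F9, had 0.23 (SE 0.13), and F13b, a subunit of the fibrin crosslinking enzyme, 0.15 (SE 0.12). F3, which encodes tissue factor, was at background throughout, and F13a1 exceeded it on 1 array. In the contact list Kng2, for kininogen, had 0.05 (SE 0.09).

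Anticoagulant genes lay mostly on the higher side at 25 ng/hr, with 10 of 11 above 0, against 49.5% of all features, a median of 0.22 and 0 past the threshold. At an unadjusted p under 0.05 there were 6, all higher, against 8.55% of all features in that direction. Procr is counted in both the 10 and the 6, but it passed the detection filter only through its 25 ng/hr arrays. The filter thus favoured its direction, and it adds no support to these counts. Serping1, the inhibitor of contact proteases and complement C1, averaged 13.29 ± 0.04 at 25 ng/hr and 12.90 ± 0.04 at 0 ng/hr (SD, n = 3 each), a difference of 0.39 (SE 0.09, adjusted p = 0.0848). Procr, the receptor of protein C, exceeded background on 2 of the 3 arrays with 25 ng/hr and on none with 0 ng/hr. Its difference in limma's fit was 0.62 (SE 0.14, adjusted p = 0.0815) and was not called. Set against the detection floor, its 25 ng/hr mean was 1.13-fold higher. That floor is the lowest signal detected per array, or the probe's own where that was higher. The 1.13-fold value carries no sampling error, so it is not a tested lower limit. Serpinc1, the antithrombin gene, named here after its value was seen, had the 1 estimate below 0. At 12.5 minus 0 ng/hr 9 of the 11 lay above 0, against 50.6% of all features, with a median of 0.14. Procr is among these 9, though above background on no array of either group. No gene was higher at an unadjusted p under 0.05. Thbd (-0.65, SE 0.20, adjusted p = 0.302) and Serpinc1 (-0.41, SE 0.11, adjusted p = 0.245) were lower at that unadjusted p, which 11.5% of all features reached in either direction.

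In the fibrinolysis list 3 of 6 tested genes lay above 0 at 25 minus 0 ng/hr, with a median of 0.06. Serpinf2, the plasmin inhibitor, had 0.22 (SE 0.11), and Plaur, the urokinase receptor, had -0.22 (SE 0.14). The vitamin K and secretion list had a median of 0.01 over 6 genes. Its smallest p were those of Furin, a propeptide-cleaving protease (-0.27, SE 0.09, adjusted p = 0.181), and Vkorc1l1, a vitamin K reductase (-0.32, SE 0.12, adjusted p = 0.227). Of 6 transcription factors tested, with a median of 0.00, Cebpb had 0.36 (SE 0.12, adjusted p = 0.181) and Foxa2 -0.36 (SE 0.20). The interleukin-6 list, whose signal drives fibrinogen synthesis in the acute phase, went both ways, with 2 of 5 genes above 0, a median of -0.24 and no unadjusted p under 0.05. The smallest p were those of Stat3 (-0.40, SE 0.18, adjusted p = 0.311) and its feedback inhibitor Socs3 (-0.29, SE 0.18, adjusted p = 0.457).

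**Figure D5:**
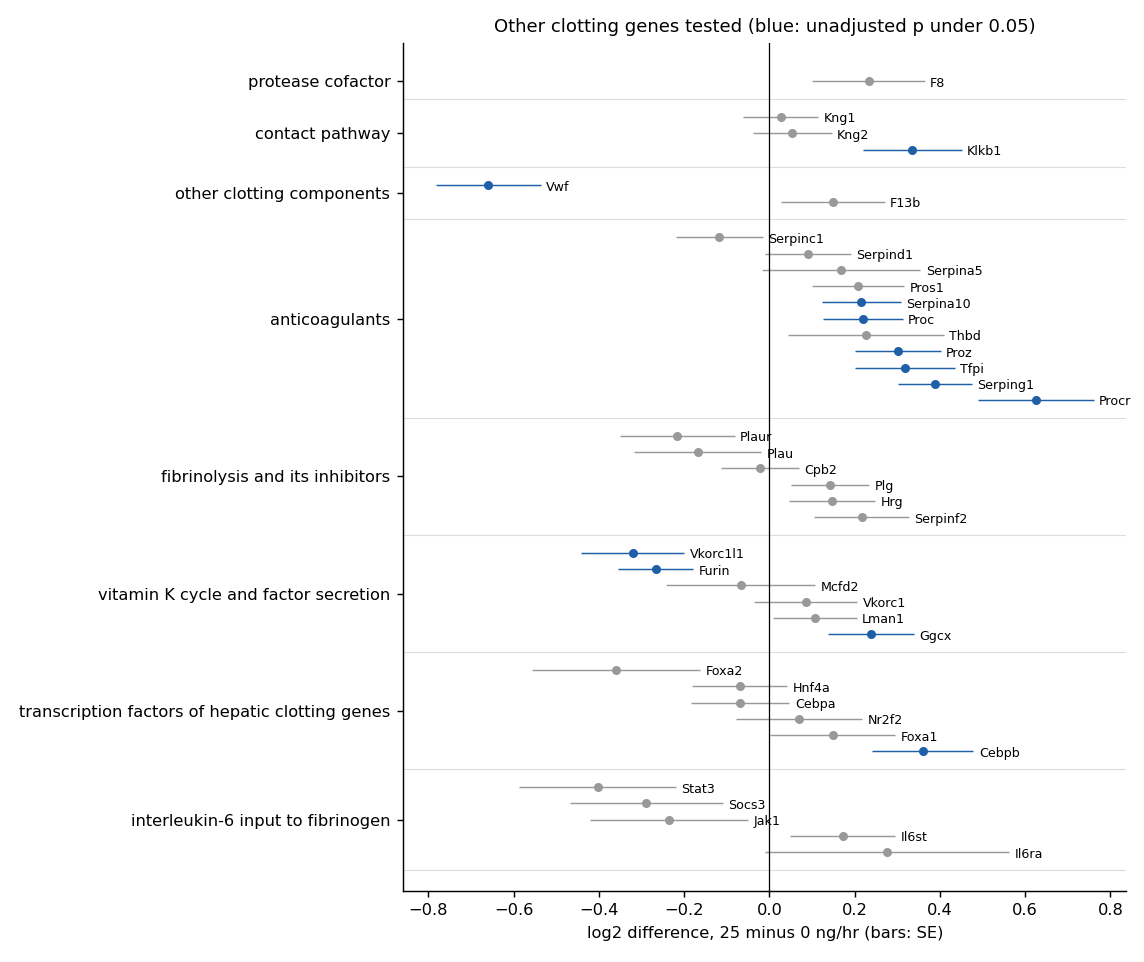
Log2 differences of 25 minus 0 ng/hr (points, horizontal axis) with SE (lines) for the 40 further clotting genes tested, grouped by list, with the 12 at an unadjusted p under 0.05 in blue. None passes after adjustment, Vwf has the lowest value at -0.66 and 10 of the 11 anticoagulant genes lie above 0. Procr, among these 10 and among the 12 in blue, passed the detection filter only through its 25 ng/hr arrays.

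In bulk liver a change in the number of cells of a type and in RNA per cell cannot be told apart. The 4 hepatocyte markers tested had no call, and the log2 of their summed signal was 16.49 to 16.62 at 0 ng/hr, 16.61 on both arrays at 12.5 ng/hr and 16.59 to 16.62 at 25 ng/hr. Of 8 macrophage and Kupffer cell markers 7 were tested, and Adgre1, Clec4f, Vsig4 and Csf1r rose with 25 ng/hr against 0 ng/hr (their adjusted p lay between 0.0307 and 0.0464), while Marco, Timd4 and Cd68 did not pass. At 12.5 minus 0 ng/hr, where F7 had -0.11 and F11 0.82, the median of the 7 was 0.51, with 6 above 0 and Timd4 at -0.07. No feature passed there, and 5 of the 7 markers had an unadjusted p under 0.05 in limma's test, against 11.5% of all features. The summed log2 signal of the 7 was 10.84 to 10.96 at 0 ng/hr, 11.35 to 11.55 at 12.5 ng/hr and 11.51 to 11.64 at 25 ng/hr. The macrophage marker Cd5l was at background. At 25 minus 0 ng/hr 0 of all features passed without 0 ng/hr replicate 2 or without 25 ng/hr replicate 6, these markers included, and 4 without 25 ng/hr replicate 7 and 6 without 0 ng/hr replicate 3. Endothelial markers, with no call, summed to 12.10 to 12.29, 12.22 to 12.35 and 12.37 to 12.67 at 0, 12.5 and 25 ng/hr. This sum is mostly Clec4g, the brightest of the 7, at 0.55 for 25 minus 0 ng/hr (SE 0.13, adjusted p = 0.0875), while the median of the list was 0.01 and Vwf had -0.66. Stellate cell and fibroblast markers summed to 12.85 to 13.59 at 0 ng/hr, 13.40 to 13.41 at 12.5 ng/hr and 12.58 to 12.86 at 25 ng/hr. The sum is mostly Dcn, and its 13.59 is on 0 ng/hr replicate 1. There Acta2 read 12.10, against 8.98 and 7.80 on replicates 2 and 3. Col1a1 exceeded background on 0 and Col3a1 on 1 of the 3 arrays with 25 ng/hr. Those 2 genes and Lum were called lower at 25 than at 12.5 ng/hr, where 0.424% of all features passed. The detection filter favoured this direction for Col1a1, which passed it only through its 12.5 and 0 ng/hr arrays. Set against the detection floor at 25 ng/hr, its 12.5 ng/hr mean was 3.52-fold higher, a value without sampling error. Without 12.5 ng/hr replicate 4 no feature passed in that contrast, and without replicate 5 there was 1. Of 7 platelet markers 3 were tested, and of the red cell and bile duct markers 3 of 3 and 2 of 4, with no call. The part of these cells in the values of F7 and F11 was not tested.

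Likeness of profile was measured as the root mean square difference of centred log2 values over the 8 arrays. The features nearest to F11 were Csrp3 (0.23), Mcm10 (0.23) and C8a (0.26), where F11 itself had an SD of 0.64 over the arrays. C8a, a subunit of the terminal complement complex, read 8.48, 8.51 and 8.87 at 0 ng/hr, 9.81 and 9.42 at 12.5 ng/hr, and 10.88, 10.49 and 9.57 at 25 ng/hr. As for F11, replicate 8 was the lowest of the 25 ng/hr arrays, which the choice of C8a by likeness to F11 favoured. The feature nearest to F7 was Timd4, a Kupffer cell receptor gene of the macrophage list (0.04, against an SD of 0.27 for F7 itself), followed by H2bc12 and Ddt (0.08 each). The nearest features were Glyr1 for F2, Prss30 for F5, Romo1 for F9, Skiv2l for F10, Dennd6b for F12, Snrpd3 for Fga and Zscan12 for Fgg, at 0.03 to 0.05. Other members were not close: the nearest member ranked 750 for F11 (F7) and 291 for F7 (F10) among all features. The closest pair of members was F9 and Fga (0.07), and the pairing ranked 133 among all features for F9 and 158 for Fga. Profiles with a small spread are near to many others by this measure, and all values share the same 8 arrays.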

How the data were processed

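Liver RNA of 8 labelled samples was measured on 1 array each. Per the labels' protocols, Trizol was used for RNA and biotinylated cRNA was prepared for Illumina arrays. Scanner software: not given in the sources used here. Deposited by the authors were an average signal per probe and array, which is an intensity on a linear scale, and a detection p-value. A further deposited table holds these values scaled by 1 factor per array (0.927 to 1.08), with the ratio of group means. The series matrix repeats that table exactly, so it is linear and uncentred, with medians of 68.4 to 74.2.

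Unscaled intensities were corrected for background through the detection p-values, quantile-normalized and log2-transformed by neqc (offset 16) in limma (version 3.58.1, R version 4.3.3). Between 47.1% and 49.7% of probes were above background per array, and the number of arrays limits the precision. Arrays of 1 group correlated with r from 0.988 to 0.993 across features, and arrays of different groups with r from 0.981 to 0.993. A feature had to be detected at p-value 0.05 on 2 or more arrays, and the probe with the highest mean was kept per gene. A single fit of 3 group means (lmFit, eBayes) covered all 8 arrays, with Benjamini-Hochberg adjustment over 10141 features. Every adjusted p is from this fit unless another is named. The fit was tested on simulated data. Symbols were updated through RefSeq (GRCm38.p6) for 24803 of 25697 probes. Chromosomes of F5, F9, F10, Fga and Fgb come from RefSeq. Probe sequences were not used here. Members and lists were chosen with earlier results of these data known. Named were all members, for each list the passing genes or else those with the 2 smallest p, and the 3 most alike features. Figures used matplotlib version 3.10.9.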

Additional observations from a re-analysis of the deposited data

How the results depend on the processing

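The number of coagulation genes called was 0 in all 4 contrasts. At 25 minus 0 ng/hr it became 2 (F11 and F7) with intensities left uncorrected for background, 2 with the scaled values of the authors and 2 with a variance prior that follows intensity. Of all 10141 features these settings called 192, 188 and 206, against 90 in the fit used here. The number of coagulation genes called ran from 0 to 1 when single arrays were left out. The 1 was F11 without 25 ng/hr replicate 8, where 130 of 10042 features passed. At 25 minus 12.5 ng/hr it became 1 (F7) with uncorrected intensities, where 77 features passed, against 43 in the fit used here. For the mean of both doses it became 1, again F11, without replicate 8, where 78 of 10042 features passed, against 0. The other 65 of 71 recomputed counts stayed at 0, so median scaling, the 3 other detection filters, every probe, array weights and a fit of only the groups compared gave no call. Of 639 recomputed log2 differences 9 came to pass the threshold and 43, all uncalled, changed sign. With no call to begin with, none could be lost. The cause of the moves was not tested. The count over all features, 90 at 25 minus 0 ng/hr, ran from 0 (without 0 ng/hr replicate 2, and also without 25 ng/hr replicate 6) to 206 (the intensity-following prior), and 43 at 25 minus 12.5 ng/hr ran from 0 (without 12.5 ng/hr replicate 4) to 110. At 12.5 minus 0 ng/hr 0 features became at most 10, and for the mean of both doses 0 became at most 81. No paired analysis was possible because the groups share no replicate numbers, and no block could be fitted because all arrays lie on 1 BeadChip. Fgb, not above background, has no level.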
